A study of Mus musculus with 9 samples.

Results

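The Fc gamma receptor genes of mouse alveolar macrophages comprised 6 genes here, out of 12003 measured: the inhibitory receptor gene Fcgr2b, the activating receptor genes Fcgr1, Fcgr3 and Fcgr4, the shared signalling chain gene Fcer1g and the kinase gene Syk. They were chosen by name, as the receptors for the constant part of IgG that mice carry plus the chain and kinase that serve them, and all 6 were found in the table through their Ensembl identifiers. Alveolar macrophages live in the air spaces of the lung, where they clear inhaled particles and surfactant. They were washed out of the lungs of untreated mice by lavage, enriched with beads against CD11c and sequenced as poly(A) RNA, in 3 pools for each of 3 genotypes. A pool held cells of 5 to 7 mice of 8 to 12 weeks on the C57BL/6 background, matched for age and sex, and which sex a pool held is not stated.

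The Vhl knockout, Vhl(flox/flox) / CD11c (cre/+), carries loxP-flanked Vhl on both alleles and a Cre recombinase driven by the promoter of CD11c, the integrin chain also used for the purification. The Cre control, Vhl(+/+) / CD11c (cre/+), carries the same Cre with intact Vhl, and the floxed control, Vhl(flox/flox) / CD11c (+/+), carries the loxP-flanked alleles without Cre. VHL is the part of a ubiquitin ligase that recognises the alpha subunits of hypoxia-inducible factors. The CD11c promoter is also active in dendritic cells and other CD11c-bearing cells, so the deletion is not limited to macrophages. By its title, the series asks how VHL bears on the maturation, renewal and function of these macrophages.

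Fc gamma receptors let a macrophage bind particles and immune complexes coated with IgG. The activating receptors signal through the common gamma chain encoded by Fcer1g, whose activation motif (ITAM) is phosphorylated by Src-family kinases and then docks the kinase Syk, leading to phagocytosis and cytokine release. The inhibitory receptor encoded by Fcgr2b carries an inhibitory motif (ITIM) that recruits the lipid phosphatase SHIP1 and dampens those signals. Because both kinds bind the same ligand, the balance between them is a common measure of how readily a cell responds to IgG.

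Values are normalized reads: counts scaled to the depth of each library (CPM) with a further library factor, not corrected for gene length. Libraries held 18201116 to 25861174 reads, so 1 read was worth 0.0400 to 0.0565 normalized reads, and each of the 6 genes had between 395 and 26055 reads in every library. Differences are log2 fold changes from limma on log2(value + 1), with p-values adjusted over all 12003 genes. A gene was called at an adjusted p under 0.05. The p-values measure the spread between pools. Vhl had 2.02, 2.14 and 2.52 normalized reads in Vhl knockout libraries, 24.03, 21.9 and 25.3 in Cre controls, and 21.04, 14.9 and 18.4 in floxed controls. All 16 alveolar macrophage markers looked for were measured, and their summed level was 39346 to 51842 in Vhl knockouts, 29377 to 34017 in Cre controls and 30424 to 34487 in floxed controls. Chil3 alone gave 25431 to 38057 of it in Vhl knockouts, 15661 to 18477 in Cre controls and 17355 to 20336 in floxed controls. Against both controls 5 of the 16 were higher, 3 lower and 8 not called, where 19.7% of all genes were higher and 20.2% lower. Named after their values were seen, the lower ones were Siglecf (log2 fold change -0.58, limma adjusted p = 0.000276), Krt79 (-1.10, limma adjusted p = 1.92e-05) and Car4 (-0.43, limma adjusted p = 0.00793). The higher ones were Chil3, Marco, Pparg, Fabp1 and Cidec. Against Cre controls alone, Car4 (-0.29, limma adjusted p = 0.0882) and Cidec (0.34, limma adjusted p = 0.0752) were not called. In bulk RNA, fewer cells of a type and less RNA per cell cannot be told apart.

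Fcgr2b and Fcgr3 are neighbours on chromosome 1 and share part of their sequence, which bears on how 61-base reads can be assigned to them. Of all 61-base stretches in the Fcgr2b transcripts, 197 of 5726 (3.44%) also occur in transcripts of another gene, 133 of them in Fcgr3. In the Fcgr3 transcripts, 133 of 1733 (7.67%) are shared, all with Fcgr2b. Fcgr1, Fcgr4, Fcer1g and Syk have 0 such stretches. The longest shared stretch spans 129 bases of exons 3 and 4 of each gene (GRCm38, minus strand, chr1:170966674-170968081 for Fcgr2b and chr1:171054167-171057792 for Fcgr3, with an intron inside each span). It is printed from the GENCODE M21 transcripts because it is the longest place where reads of the inhibitory and an activating receptor cannot be separated. Capitals mark the identical bases and lower case the flanking 20 bases on each side.
Fcgr2b: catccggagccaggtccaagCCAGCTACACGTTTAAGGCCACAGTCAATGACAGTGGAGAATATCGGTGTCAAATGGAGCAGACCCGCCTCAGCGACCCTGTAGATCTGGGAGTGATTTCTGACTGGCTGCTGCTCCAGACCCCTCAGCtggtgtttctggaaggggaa
Fcgr3: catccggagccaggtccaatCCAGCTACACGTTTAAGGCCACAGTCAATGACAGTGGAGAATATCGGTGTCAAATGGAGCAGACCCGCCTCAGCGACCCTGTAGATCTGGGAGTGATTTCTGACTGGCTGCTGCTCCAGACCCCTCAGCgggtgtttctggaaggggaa
The flanks already differ between the genes at the bases next to the shared stretch. How the authors' counting divided reads of this stretch between the genes was not tested.

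Fcgr2b, the inhibitory receptor, had the largest change of the 6 genes and was higher in knockout macrophages. Fcgr1 was lower, Fcgr3 and Fcgr4 were modestly higher, and Fcer1g and Syk were not called. Thus 4 of 6 genes were called against both controls together, 3 higher and 1 lower. Over all genes 39.8% were called in that comparison, 19.7% higher and 20.2% lower, so being called is by itself common in these data. The same 4 genes were called against Cre and against floxed controls taken separately, with unchanged direction, as were 27.3% of all genes. Against Cre controls 34.0% of all genes were called (16.3% higher, 17.7% lower), and against floxed controls 34.3% (17.5% higher, 16.8% lower). With the same sum in every library, the split against floxed controls was 1635 higher and 2540 lower, in place of 2099 higher and 2013 lower. These comparisons share the knockout libraries. The plot of values by library shows the per-pool levels behind each of these differences.

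**Figure D1:**
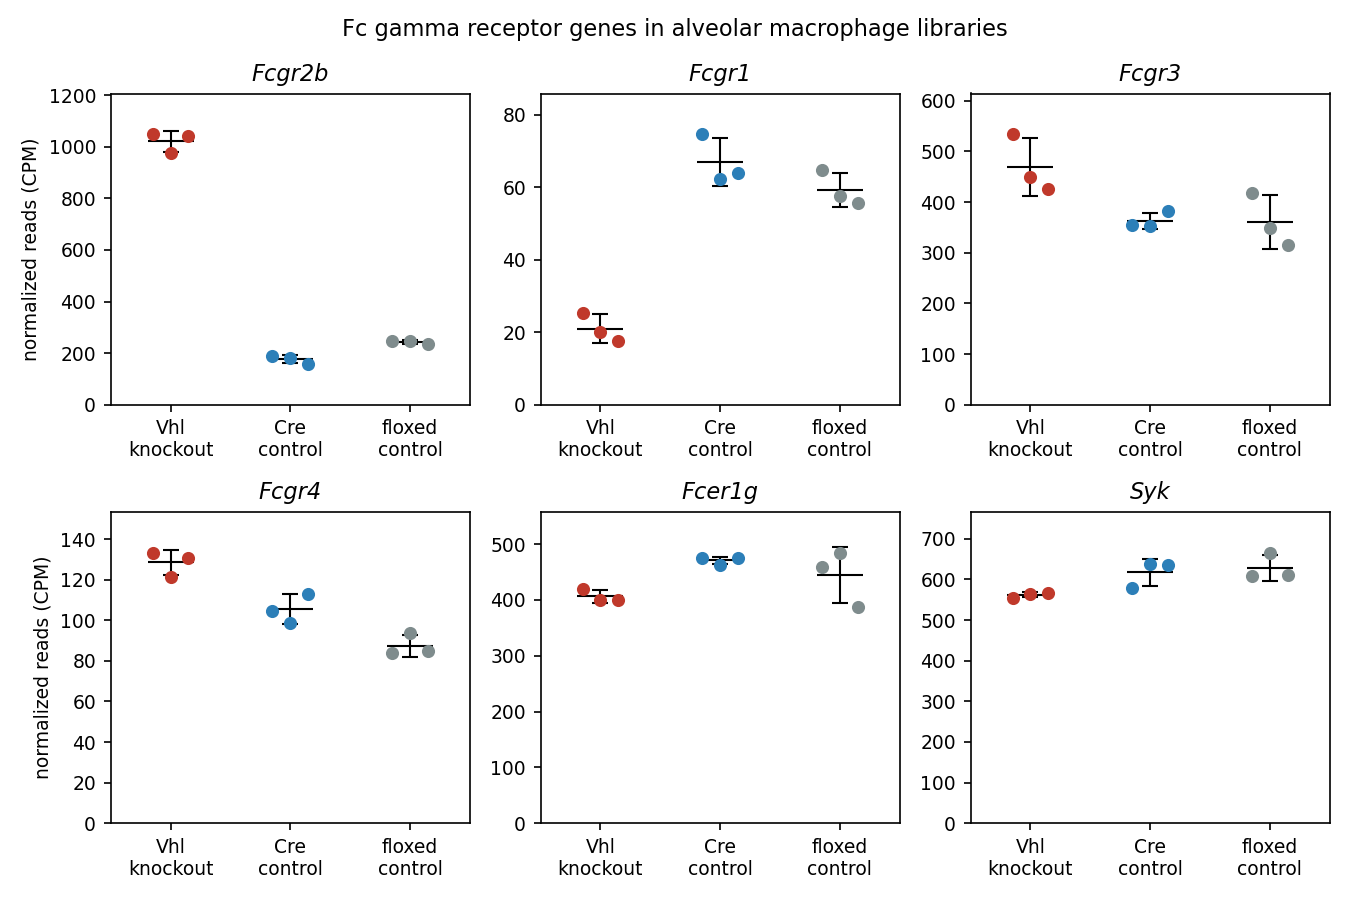
Normalized reads (CPM, linear axes from 0) of the 6 genes in each library, with Vhl knockout, Cre control and floxed control from left to right; points are pools and the bar and whiskers are the mean ± SD of 3 pools. Fcgr2b lies at 976 to 1049 in Vhl knockouts and at 158 to 248 in the controls, Fcgr1 at 17.5 to 25.4 and at 55.6 to 74.7, while Fcer1g overlaps between genotypes.

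Fcgr2b (ENSMUSG00000026656, GRCm38, chr1:170958617-170976547, minus strand) had 1049, 976 and 1042 normalized reads in Vhl knockout libraries, 188, 182 and 158 in Cre controls and 246, 248 and 234 in floxed controls. Every knockout pool lay far above every control pool, and the 2 control genotypes did not overlap each other. The means were 1022 ± 40.5 in Vhl knockouts, 176 ± 15.8 in Cre controls and 243 ± 7.29 in floxed controls (SD, n = 3 each). Against both controls the log2 fold change of 2.30 (SE 0.0628, limma adjusted p = 4.9e-09) was the 109th highest of 12003. It was 2.54 against Cre controls (SE 0.0725, limma adjusted p = 9.24e-09) and 2.07 against floxed controls (SE 0.0725, limma adjusted p = 3.94e-08). Across 18 alternative settings the difference against both controls ranged between 2.12 and 2.34 and stayed called in each.

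The control genotypes themselves differed in Fcgr2b. Cre controls averaged 0.725 times the floxed level, a log2 difference of -0.47 (SE 0.0725, limma adjusted p = 0.0487). This was the weakest of only 20 genes called between Cre and floxed controls (0.167% of all genes), and it was not called in 12 of 19 alternatives, where the adjusted p ran from 2.6e-07 to 0.196 over all 19. The size of the difference stayed between -0.51 and -0.39 in every alternative, and it runs against the direction of the knockout. It is also the test of whether the knockout difference depends on the control: the 2 fold changes, 5.81 against Cre controls and 4.21 against floxed controls, differ by that amount.

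Fcgr1, the high-affinity receptor (ENSMUSG00000015947, chr3:96282909-96293969, minus strand), had 25.4, 20.2 and 17.5 normalized reads in Vhl knockout libraries, 74.7, 62.4 and 63.99 in Cre controls and 64.7, 57.5 and 55.6 in floxed controls. Every knockout pool lay far below every control pool, and the control genotypes overlapped. The means were 21.02 ± 4.01 in Vhl knockouts (SD, n = 3) and 63.2 ± 6.704 in both controls (SD, n = 6), a ratio of 0.333. On the log2 scale this was -1.55 (SE 0.109, limma adjusted p = 3.25e-06), the 99th lowest of all genes, with -1.64 against Cre controls (SE 0.126, limma adjusted p = 7.91e-06) and -1.47 against floxed controls (SE 0.126, limma adjusted p = 1.84e-05). In all 18 alternatives it stayed called, between -1.69 and -1.39. Fcgr1 lies on a different chromosome from the other receptor genes.

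Fcgr4, a receptor of intermediate affinity (ENSMUSG00000059089, chr1:171018920-171029761, plus strand), had 133, 122 and 131 normalized reads in Vhl knockout libraries, 105, 98.6 and 113 in Cre controls and 83.7, 93.7 and 84.8 in floxed controls. The 3 genotypes did not overlap, with Vhl knockouts highest and floxed controls lowest. It was 1.33-fold higher than both controls, or 0.42 on the log2 scale (SE 0.0615, limma adjusted p = 0.000469). The log2 difference was 0.28 against Cre controls (SE 0.071, limma adjusted p = 0.0121) and 0.55 against floxed controls (SE 0.071, limma adjusted p = 0.000262). The difference against Cre controls was 0.25 and no longer called without library 1 of each genotype (limma adjusted p = 0.0658). Between Cre and floxed controls the difference of 0.27 was not called (limma adjusted p = 0.431), so the ordering of the controls is a description.

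Fcgr3, a low-affinity activating receptor (ENSMUSG00000059498, chr1:171051174-171064935, minus strand), had 534, 449 and 426 normalized reads in Vhl knockout libraries, 355, 354 and 382 in Cre controls and 418, 349 and 315 in floxed controls. The lowest knockout pool lay just above the highest floxed pool. It was 1.298-fold higher than both controls, or 0.37 on the log2 scale (SE 0.0964, limma adjusted p = 0.0117). The log2 difference was 0.36 against Cre controls (SE 0.111, limma adjusted p = 0.03) and 0.38 against floxed controls (SE 0.111, limma adjusted p = 0.0236). Without Vhl knockout 1 the difference from both controls was 0.28 and no longer called (limma adjusted p = 0.0586), while without library 1 of each genotype it was 0.32 and still called (limma adjusted p = 0.00853). Against Cre controls alone the call was lost in 6 of 19 alternatives and against floxed controls in 4 of 19. Library 1 also carried the highest summed neutrophil markers of its genotype, with 670.3, 236 and 378 in Vhl knockouts 1 to 3, 585, 196 and 284 in Cre controls 1 to 3, and 1254, 769.9 and 328 in floxed controls 1 to 3. Without these 3 libraries the difference from floxed controls was 0.40 (limma adjusted p = 0.00774) and that from Cre controls 0.25 and not called (limma adjusted p = 0.0531).

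Fcer1g, the common gamma chain (ENSMUSG00000058715, chr1:171229572-171234365, minus strand), had 419.9, 400.5 and 399 normalized reads in Vhl knockout libraries, 475, 463 and 475 in Cre controls and 459, 485 and 388 in floxed controls. All 3 knockout pools lay below the Cre controls, but floxed control 3 lay below all of them. The log2 fold change of -0.17 was not called (SE 0.069, limma adjusted p = 0.0818). Without floxed control 3 it was -0.21 and called (limma adjusted p = 0.00557). Scaling libraries to the same sum (-0.22), quantile normalization (-0.25) and DESeq2 (-0.17) also called it.

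Syk (ENSMUSG00000021457, chr13:52583173-52648792, plus strand), the kinase docked by the gamma chain, had 555, 564 and 567 normalized reads in Vhl knockout libraries, 579.8, 638 and 636 in Cre controls and 609, 666 and 612 in floxed controls. The knockout pools all lay below the controls, by a small margin. The log2 fold change of -0.15 was not called (SE 0.0556, limma adjusted p = 0.0582). It was called without Cre control 1 (-0.17, limma adjusted p = 0.0328), without floxed control 3 (-0.16, limma adjusted p = 0.048), with the same sum in every library (-0.20), under quantile normalization (-0.29) and by DESeq2 (-0.15). Without overlap between 3 knockout and 6 control libraries stood 5 of the 6 genes, all but Fcer1g, where 37.7% of all genes did. The knockout means of Fcer1g and Syk were 0.889 and 0.901 times those of both controls.

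**Figure D2:**
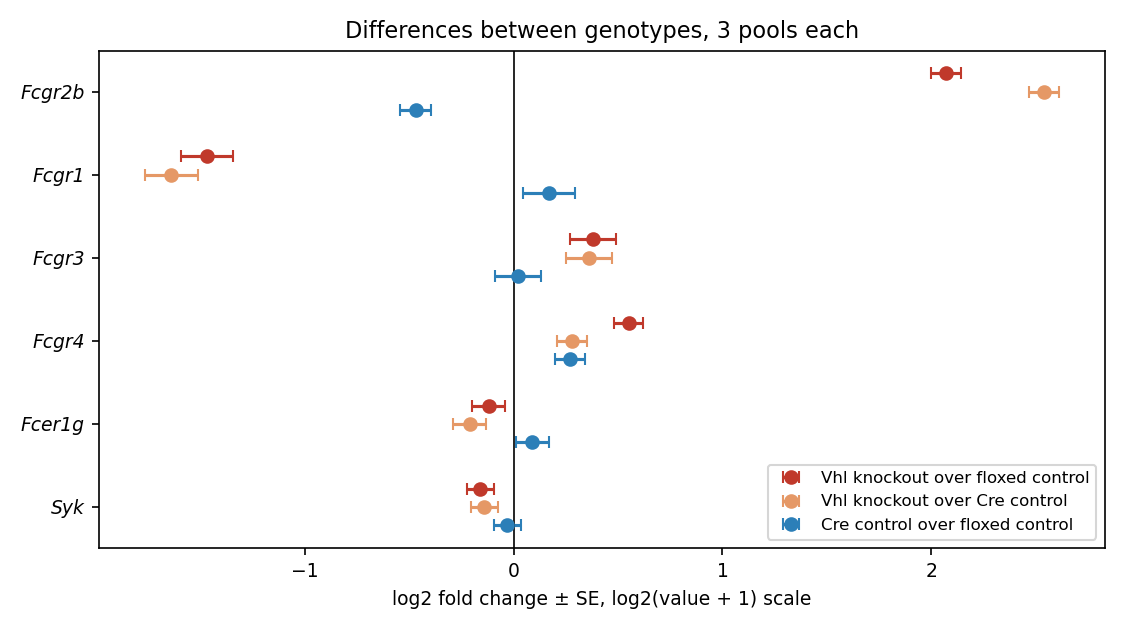
Log2 fold change ± SE on the log2(value + 1) scale for the 6 genes, as Vhl knockout over floxed control, Vhl knockout over Cre control, and Cre control over floxed control. Fcgr2b stands at 2.07 and 2.54 and Fcgr1 at -1.47 and -1.64 against the controls, while the difference between the controls runs between -0.03 and 0.27 for all genes but Fcgr2b at -0.47.

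The ratio of the inhibitory receptor to the activating receptors compares genes within a library, so a library's scaling factor cancels out of it. Fcgr2b over the sum of Fcgr1, Fcgr3 and Fcgr4 was 1.51, 1.65 and 1.81 in Vhl knockout libraries, 0.351, 0.354 and 0.283 in Cre controls and 0.434, 0.496 and 0.515 in floxed controls. In every knockout pool inhibitory reads exceeded the activating sum, and in every control pool they fell short of it. The ratio was 4.17-fold higher in Vhl knockouts than in both controls, a log2 difference of 2.06 (exact two-sided permutation test over 84 assignments of libraries, p = 0.0238, the smallest that 3 against 6 libraries allow). It was 5.06-fold higher than in Cre controls and 3.45-fold higher than in floxed controls. Cre controls lay at 0.682 times the floxed ratio, without overlap. Per kilobase of exon the ratio was lower in all libraries, at 0.428 to 0.505 in Vhl knockouts, 0.0815 to 0.103 in Cre controls and 0.128 to 0.150 in floxed controls, so on that scale the activating sum exceeded Fcgr2b in every library. The fold over both controls was then 4.03.

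Fcgr2b was also set against each activating receptor alone, which does not measure that receptor's weight in the summed ratio. Fcgr2b over Fcgr1 was 41.3, 48.4 and 59.5 in Vhl knockouts, against 2.51, 2.92 and 2.47 in Cre controls and 3.799, 4.31 and 4.21 in floxed controls, a 14.99-fold difference from both controls. Fcgr2b over Fcgr4 was 7.87, 8.03 and 7.97 in Vhl knockouts, 1.79, 1.85 and 1.396 in Cre controls and 2.94, 2.65 and 2.76 in floxed controls, or 3.697-fold. For Fcgr3 the ratio was 1.96 to 2.44 in Vhl knockouts, 0.414 to 0.529 in Cre controls and 0.588 to 0.744 in floxed controls, or 3.82-fold. Among the activating receptors, Fcgr1 over Fcgr4 fell to 0.134 to 0.190 in Vhl knockouts, against 0.566 to 0.712 in Cre controls and 0.614 to 0.773 in floxed controls. Fcgr3 over Fcgr4 overlapped between the genotypes, at 3.26 to 4.004 in Vhl knockouts, 3.37 to 3.59 in Cre controls and 3.71 to 4.99 in floxed controls.

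As shares of the reads of the 4 receptor genes, Fcgr2b took 60.2, 62.3 and 64.4% in Vhl knockouts, 25.99, 26.1 and 22.03% in Cre controls and 30.3, 33.1 and 33.98% in floxed controls. Fcgr3 held 26.4 to 30.7% in Vhl knockouts, against 49.2 to 53.3% in Cre controls and 45.7 to 51.5% in floxed controls. Per kilobase of exon Fcgr3 had the largest share in all genotypes, 45.8 to 50.9% in Vhl knockouts, 58.6 to 60.8% in Cre controls and 58.4 to 64.2% in floxed controls. Fcgr1 held, of the reads, 1.08 to 1.46% in Vhl knockouts, 8.93 to 10.3% in Cre controls and 7.69 to 8.07% in floxed controls. The summed reads of the 4 receptors were 1742, 1566 and 1617 in Vhl knockouts, 722, 696 and 717 in Cre controls and 812, 748 and 689.8 in floxed controls, and the Vhl knockout sum was 2.25-fold higher than in both controls. The sum of the 3 activating receptors alone was only 1.19-fold higher, at 575 to 693 in Vhl knockouts, 514 to 559 in Cre controls and 455 to 566 in floxed controls. Protein at the cell surface was not measured in these files, so all of these are ratios of RNA.

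**Figure D3:**
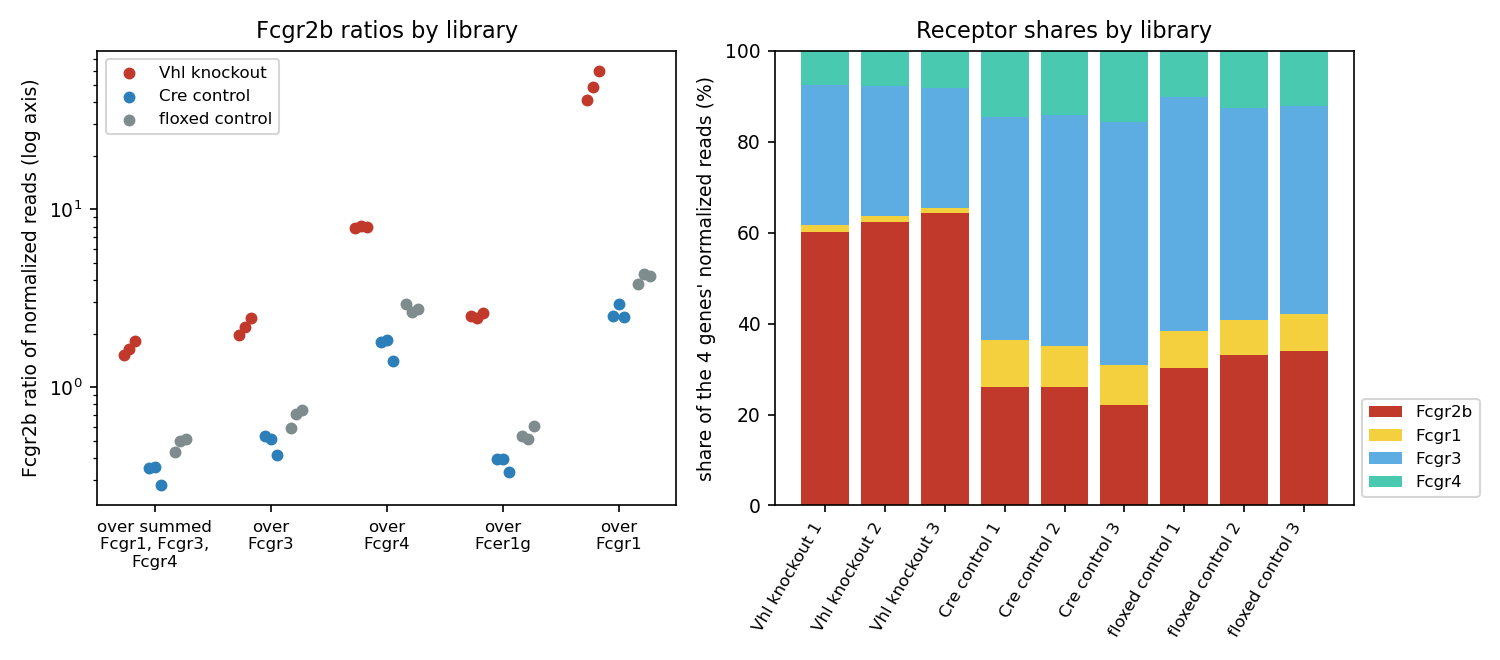
Left, ratios of Fcgr2b normalized reads to those of the activating receptors and of Fcer1g in each library (log axis), with Vhl knockout, Cre control and floxed control from left to right within each ratio. Right, share of each receptor gene in the reads of the 4 receptors, by library; the Fcgr2b share is 60.2 to 64.4% in Vhl knockouts and 22.03 to 33.98% in the controls.

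Levels can be compared between genes only per length. Per kilobase of exon, over the union of annotated exons, the order in Vhl knockouts was Fcer1g (465 ± 13.3 normalized reads per kilobase), Fcgr3 (271 ± 32.8), Fcgr2b (177 ± 6.99), Fcgr4 (102 ± 4.96), Syk (60.04 ± 0.642) and Fcgr1 (8.12 ± 1.55). In both controls together it was Fcer1g (523 ± 40.2), Fcgr3 (209 ± 19.9), Fcgr4 (76.8 ± 9.14), Syk (66.6 ± 3.19), Fcgr2b (36.1 ± 6.605) and Fcgr1 (24.4 ± 2.59). Fcgr2b therefore stood above Fcgr4 and Syk in knockouts and below both in controls. Fcgr4 and Syk in the controls differed by about their spread, and in Cre controls Fcgr2b per kilobase was only 1.103 to 1.31 times Fcgr1. Its exon union of 5790 bases is longer than its longest coding transcript of 3544 bases, which lowers its level per kilobase. By longest coding transcript, Fcgr2b had 288 normalized reads per kilobase in Vhl knockouts and 59.1 in both controls. It again stood above Fcgr4 and Syk in knockouts, and below both genes in the mean of both controls. In floxed controls alone, Fcgr2b at 68.5 and Fcgr4 at 69.6 were nearly level, so the order against Fcgr4 rests on Cre controls. By that length Syk stood at 116 in both controls and above Fcgr4 at 76.8, so the order of those 2 neighbours depends on the length used.

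The region upstream of the start was searched for short motifs because Fcgr2b and Fcgr1 moved in opposite directions. The windows are the 250 bases before each RefSeq start (GRCm38.p6), on the strand of the gene, at chr1:170976072-170976321 for Fcgr2b and chr3:96293970-96294219 for Fcgr1, both on the minus strand. The GENCODE spans of Fcgr2b, Fcgr3 and Syk start further upstream, so the windows of these genes lie inside the annotated genes. Capitals mark GGAA or its reverse complement TTCC, the core bound by ETS factors such as the macrophage factor PU.1, and in Fcgr1 also TTCNNNGAA, the form bound by STAT factors after interferon.
Fcgr2b: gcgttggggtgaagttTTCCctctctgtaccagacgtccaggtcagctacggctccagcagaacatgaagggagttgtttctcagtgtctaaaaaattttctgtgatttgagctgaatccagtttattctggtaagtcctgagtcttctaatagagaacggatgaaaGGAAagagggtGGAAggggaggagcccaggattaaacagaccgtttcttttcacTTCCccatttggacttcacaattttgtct
Fcgr1: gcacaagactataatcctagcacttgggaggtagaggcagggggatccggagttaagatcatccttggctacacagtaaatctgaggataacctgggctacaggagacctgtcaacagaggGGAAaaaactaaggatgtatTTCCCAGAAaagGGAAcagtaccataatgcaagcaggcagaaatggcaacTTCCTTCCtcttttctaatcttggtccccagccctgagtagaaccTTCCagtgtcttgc
TTCNNNGAA was found in the Fcgr1 window, beginning 109 bases before the start, and in no window of the other 5 genes. Of 32851 promoters in the RefSeq table, 7.02% hold it in the same length. ACGTG, a core of the element bound by hypoxia-inducible factors, was in none of the 6 genes' windows, and 16.6% of all promoters hold it. The other form of that core, GCGTG, was in windows of Fcgr3, Fcer1g and Syk but not Fcgr2b, Fcgr1 or Fcgr4, and 28.2% of all promoters hold it. GGAA was in at least 1 window of every gene, as in 93.4% of all promoters. All motifs were searched on both strands. A match describes these letters only.

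Apart from Fcgr1 and Syk, the genes lie in one cluster on chromosome 1, and Fcgr2b was one of a pair of steeply higher genes there. Between 300 kb before Fcgr2b and 100 kb after Fcer1g, 18 genes were measured, of which 4 were higher and 2 lower in Vhl knockouts, against 19.7% higher and 20.2% lower over all genes. The other steep one was Fcrlb, an intracellular relative of the Fc receptors whose start lies 63.6 kb from that of Fcgr2b. It had 19.5, 21.5 and 22.7 normalized reads in Vhl knockouts, 2.73, 3.14 and 2.09 in Cre controls and 2.94, 3.12 and 2.55 in floxed controls. The knockout pools were all well above the controls, with a log2 fold change of 2.57 (SE 0.114, limma adjusted p = 1.3e-07). Fcrlb was not called between Cre and floxed controls (-0.09, limma adjusted p = 0.846). Fcrla, which lies between Fcrlb and Fcgr2b, had 1.68 to 1.94 normalized reads in Vhl knockouts, 0.732 to 0.848 in Cre controls and 1.18 to 2.94 in floxed controls and was not called (0.33, limma adjusted p = 0.178). The lower genes of the region were Olfml2b (-0.72, limma adjusted p = 0.0124) and Atf6 (-0.25, limma adjusted p = 0.0167). Every analysed gene reaches 0.962 in at least 3 libraries, and Olfml2b did so only in controls, so its call is no test. On the far side of Fcgr3, none of the measured genes from Cfap126 to Dedd was called by limma.

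**Figure D4:**
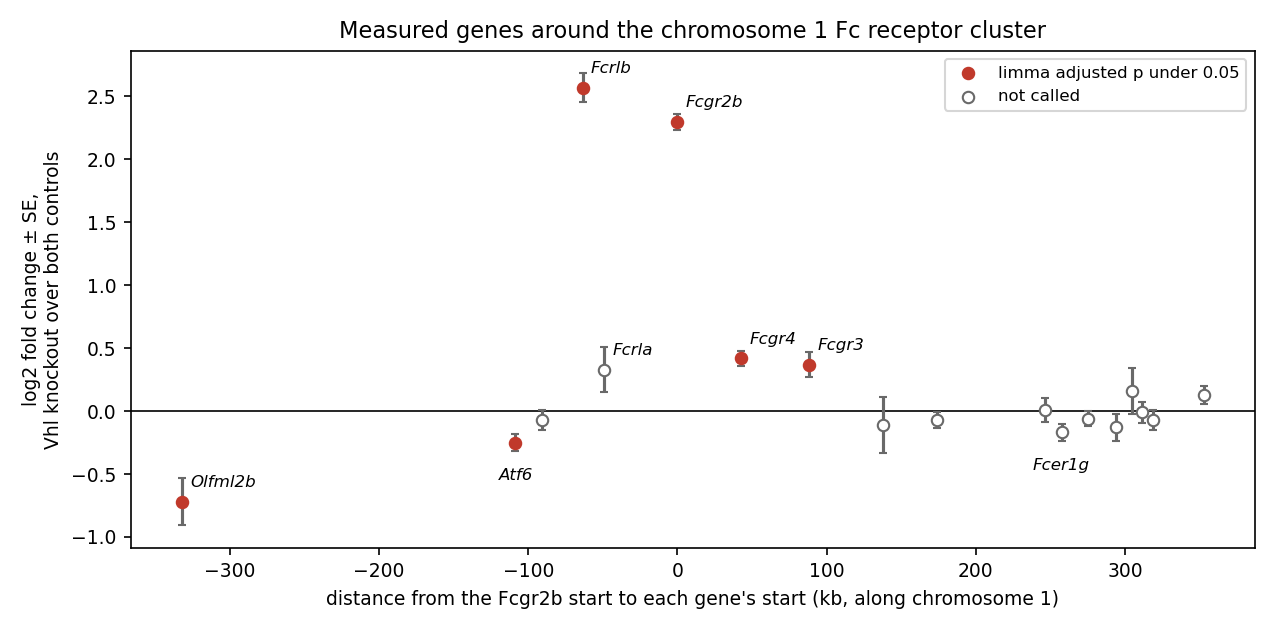
Log2 fold change ± SE (Vhl knockout over both controls) of the 18 measured genes around the cluster, against the distance in kilobases from the Fcgr2b start to each gene's start; filled points are called by limma. Fcrlb at 2.57 and Fcgr2b at 2.30 stand apart from their neighbours, and Fcgr4 and Fcgr3 lie at 0.42 and 0.37.

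Other members of the Fc receptor family were few. Of 14 listed, 6 were measured, 2 were higher (Fcrlb and Fcgrt) and 1 was lower (Fcrls). Over all genes 19.7% were higher and 20.2% lower, so these counts are given as a description. Fcgrt, the neonatal Fc receptor that recycles IgG, had 378 to 385 normalized reads in Vhl knockouts, 271 to 367 in Cre controls and 271 to 302 in floxed controls (log2 fold change 0.32, limma adjusted p = 0.0144). It was not called against Cre controls alone (0.24, limma adjusted p = 0.0892). Fcrls, a further Fc receptor-like gene, was low at 0.320 to 0.558 normalized reads in Vhl knockouts, 1.13 to 1.39 in Cre controls and 0.768 to 1.64 in floxed controls (-0.60, limma adjusted p = 0.0129). No knockout library held Fcrls at 0.962, the level that every analysed gene reaches in at least 3 libraries. It was therefore analysed only through the controls, and its call is no test. Without Vhl knockout 2 the family had 1 member higher and 2 lower, and without Vhl knockout 3 it had 0 lower. The IgE receptor subunits Fcer1a and Ms4a2 were not among the genes analysed here.

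Of 21 measured proximal kinases and adaptors, among them the Src-family kinases that phosphorylate the ITAM, 4 were higher, 6 lower and 11 not called, where 19.7% of all genes were higher and 20.2% lower, with a median log2 fold change of -0.15 against -0.00216 over all genes. Fyn had 30.5 to 30.8 normalized reads in Vhl knockouts, 43.7 to 49.9 in Cre controls and 43.9 to 48.2 in floxed controls (log2 fold change -0.59, limma adjusted p = 3.75e-05). Lyn (-0.23, limma adjusted p = 0.00411) and Fgr (-0.39, limma adjusted p = 0.0017), named after their values were seen, were also lower, and Src was not called. The genes that rose included Tec, a kinase of the Btk family, with 55.2 to 58.3 normalized reads in Vhl knockouts, 26.2 to 33.9 in Cre controls and 29.6 to 30.2 in floxed controls (0.91, limma adjusted p = 9.09e-06). Nck2, an adaptor that links receptors to actin, was at 8.41 to 10.1 in Vhl knockouts, 3.43 to 5.88 in Cre controls and 3.23 to 4.62 in floxed controls (1.0, limma adjusted p = 0.000723). The adaptors Lcp2 (SLP-76; -0.09, limma adjusted p = 0.192) and Crk (0.12, limma adjusted p = 0.0523) were not called.

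Downstream of Syk, the lipid and calcium signalling genes numbered 9 higher, 4 lower and 7 not called of 20 measured, where 19.7% of all genes were higher and 20.2% lower, with a median of 0.18. Pik3cg, a catalytic subunit of phosphoinositide 3-kinase, had 206 to 223 normalized reads in Vhl knockouts, 136 to 153 in Cre controls and 147 to 153 in floxed controls (log2 fold change 0.54, limma adjusted p = 3.88e-05). Pik3r1, a regulatory subunit of the same family of kinases, had 127 to 159.5 in Vhl knockouts, 92.7 to 96.7 in Cre controls and 83.4 to 94.6 in floxed controls (0.63, limma adjusted p = 9.29e-05). The phospholipase D gene Pld2, which overlaps the measured gene Gm10418 so that reads of the pair cannot be told apart, was at 118 to 124 in Vhl knockouts, 83.3 to 84.7 in Cre controls and 84.2 to 95.8 in floxed controls (0.48, limma adjusted p = 5.26e-05). Prkce, a protein kinase C, was low, with 3.26 to 3.999 in Vhl knockouts, 0.889 to 1.76 in Cre controls and 1.18 to 1.47 in floxed controls (1.0, limma adjusted p = 0.000435). Plcg2, the phospholipase C that Syk activates in macrophages, was not called, with 225 to 236 in Vhl knockouts, 249 to 259 in Cre controls and 238 to 268 in floxed controls (-0.13, limma adjusted p = 0.0701). Itpr2, a calcium channel of the endoplasmic reticulum, was not called either (0.20, limma adjusted p = 0.184). Among the lower genes, Prkcb, another protein kinase C, had 1.29, 0.970 and 0.600 in Vhl knockouts, 2.22, 3.03 and 2.32 in Cre controls and 10.98, 3.58 and 5.48 in floxed controls (-1.37, limma adjusted p = 0.00238). It overlaps the measured gene Gm14388 and was not called against Cre controls alone (-0.86, limma adjusted p = 0.0523). Sphk1, a sphingosine kinase, had 0.153 to 0.880 in Vhl knockouts, 1.204 to 1.92 in Cre controls and 1.11 to 2.34 in floxed controls (-0.81, limma adjusted p = 0.0108). Every analysed gene reaches 0.962 in at least 3 libraries, and Sphk1 did so only in controls, so its call is no test. Prkcb and Sphk1 were named after their values were seen. Without Vhl knockout 2 the members lower were 2 instead of 4.

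The actin machinery of phagocytosis had 5 genes higher, 5 lower and 19 not called of 29 measured, where 19.7% of all genes were higher, 20.2% lower and 39.8% called in all, and a median of -0.10. Its steepest member was Gsn, the actin-severing protein gelsolin, with 1928, 2035 and 2173 normalized reads in Vhl knockouts, 205, 191 and 212 in Cre controls and 231, 179 and 169 in floxed controls (log2 fold change 3.37, SE 0.0944, limma adjusted p = 5.53e-09). Rac2, a small GTPase of the phagocyte, had 63.96, 52.6 and 54.4 in Vhl knockouts, 189, 176 and 189.8 in Cre controls and 220.3, 194 and 178 in floxed controls (-1.73, SE 0.0805, limma adjusted p = 1.67e-07). Neither gene overlapped between knockouts and controls. Vav1, an exchange factor for Rac, was lower, at 119 to 133 in Vhl knockouts, 193 to 204 in Cre controls and 186 to 207 in floxed controls (-0.64, limma adjusted p = 1.31e-05), and Limk1, which phosphorylates cofilin, was higher (0.57, limma adjusted p = 0.00033). Cfl1, which encodes cofilin and overlaps the measured gene Snx32 (-0.03, limma adjusted p = 0.72), and Cdc42 (-0.11, limma adjusted p = 0.127) were not called. The count of lower members depended on the scaling, with 12 under the same sum in every library, 15 under quantile normalization and 8 with DESeq2, and it was 3 without Vhl knockout 1. The count of higher members was 3 without Vhl knockout 1, without Vhl knockout 3, without library 1 of each genotype and under quantile normalization.

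Inhibitory partners did not rise with Fcgr2b as a group. Of 22 measured inhibitory phosphatases and inhibitory receptors, 5 were higher, 10 lower and 7 not called, where 19.7% of all genes were higher and 20.2% lower, with a median of -0.16. Inpp5d, which encodes the SHIP1 phosphatase that the Fcgr2b motif recruits and which was named after its values were seen, had 209.8, 203 and 216 normalized reads in Vhl knockouts, 228, 250.2 and 242 in Cre controls and 234, 259 and 256 in floxed controls (log2 fold change -0.22, SE 0.0531, limma adjusted p = 0.00771). It was lower in every knockout pool, by far less than Fcgr2b was higher. Ptpn6, the tyrosine phosphatase SHP-1 recruited by many other inhibitory receptors and also named after its values were seen, had 317 to 329.7 in Vhl knockouts, 420.3 to 486 in Cre controls and 420.5 to 472 in floxed controls (-0.46, limma adjusted p = 0.000219). Clec4a2, an inhibitory C-type lectin, was lower at 39.2 to 43.8 in Vhl knockouts, 94.6 to 107 in Cre controls and 91.5 to 102 in floxed controls (-1.20, limma adjusted p = 4.12e-07), and so was the receptor phosphatase Ptprj (-0.81, limma adjusted p = 8.38e-05). The inhibitory lectin Clec12a was higher, at 67.1 to 76.3 in Vhl knockouts, 45.1 to 50.4 in Cre controls and 46.9 to 53.9 in floxed controls (0.53, limma adjusted p = 0.000169). Sirpa, the receptor for CD47, was not called, with 1990 to 2134 in Vhl knockouts, 1917 to 2168 in Cre controls and 1956 to 2142 in floxed controls (0.00, limma adjusted p = 0.975). Pag1 was not called either (-0.15, limma adjusted p = 0.21).

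Other receptors of ITAM-type signalling, with the adaptor gene Tyrobp among them, had 10 lower, 2 higher and 4 not called genes of 16 measured, where 20.2% of all genes were lower and 19.7% higher, with a median log2 fold change of -0.77 against -0.00216 over all genes. Clec7a, the beta-glucan receptor dectin-1, which signals to Syk through a related motif in its own tail and not through an adaptor, had 624, 512 and 519.8 normalized reads in Vhl knockouts, 1642, 1503 and 1517 in Cre controls and 1407, 1258 and 1162 in floxed controls (log2 fold change -1.35, SE 0.086, limma adjusted p = 1.51e-06). Clec4n, dectin-2, which pairs with the Fcer1g chain, had 130.2, 132 and 142 in Vhl knockouts, 493, 558 and 608 in Cre controls and 530.5, 496 and 398 in floxed controls (-1.91, SE 0.0952, limma adjusted p = 2.7e-07). Both were lower in every knockout pool than in every control pool. Cd300c2 was lower as well, at 92.4 to 99.2 in Vhl knockouts, 191 to 215 in Cre controls and 166 to 192 in floxed controls (-0.99, limma adjusted p = 9.77e-07). One of the 2 higher genes was Oscar, another receptor that pairs with the Fcer1g chain, at 2.83, 2.25 and 2.399 in Vhl knockouts, against 0, 0 and 0 in Cre controls and 0, 0.0512 and 0.0481 in floxed controls, where the values above 0 are 1 read each. Only knockout libraries hold Oscar above 0.962, the level that every analysed gene reaches in at least 3 libraries. It was therefore analysed only through the knockouts, and its call is no test. The DAP12 chain gene Tyrobp was not called (-0.20, limma adjusted p = 0.116), nor was Trem2 (0.20, limma adjusted p = 0.148).

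**Figure D5:**
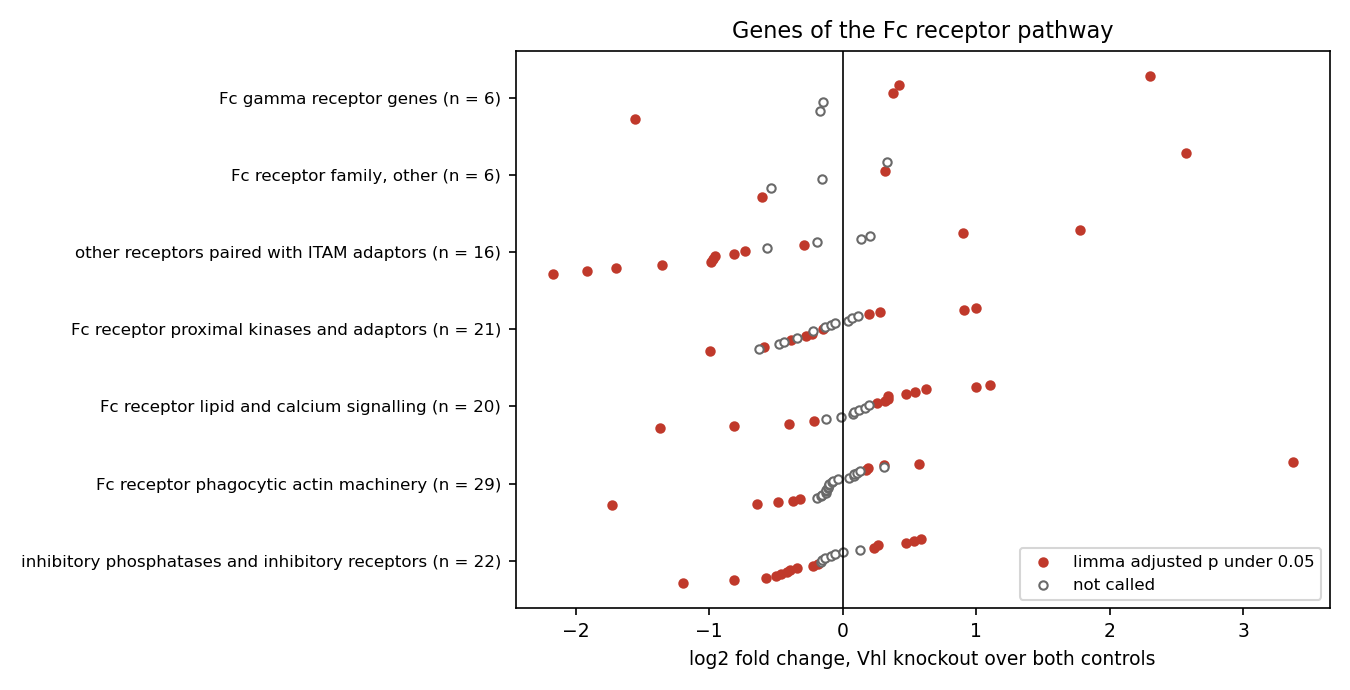
Log2 fold change (Vhl knockout over both controls) of every measured gene in the lists, 1 point per gene, with filled points called by limma and n the number measured. The list of other ITAM-type receptors, which also holds Clec7a and the adaptor gene Tyrobp, lies mostly below 0, with a median of -0.77, while the actin machinery centres near 0, with Gsn at 3.37 and Rac2 at -1.73.

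Immunoglobulin RNA was low and uneven. Of 13 immunoglobulin genes looked for, 5 were measured (Igkc, Igha, Ighm, Jchain and Ighg2b), and Ighg1, Ighg2c and Ighg3 were not among the genes analysed here. Against both controls 2, Igkc and Igha, were called higher in Vhl knockouts, but 10 of 18 alternatives gave fewer. Over all genes 19.7% were higher in that comparison and 20.2% lower. Against Cre controls 4 were higher and 0 lower, where 16.3% of all genes were higher and 17.7% lower. Against floxed controls 0 were higher and 1 lower, where 17.5% of all genes were higher and 16.8% lower. Their summed level was 94.98, 44.5 and 80.4 in Vhl knockouts, 4.08, 2.98 and 7.01 in Cre controls and 331, 28.2 and 54.3 in floxed controls. Floxed control 1 held most of it, and the knockout range lay inside the floxed range.

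Fcgr2b is also the leading Fc receptor of B cells and is expressed by dendritic cells and monocytes, so markers of these cells were read beside it. None (0 of 10) of the B cell markers, including Cd79a, Cd79b and Ms4a1, was among the genes analysed here. Over all genes 19.7% were higher and 20.2% lower, the background for each marker list in this paragraph. Of the 15 dendritic cell markers, all measured, 12 were lower and 1 higher. Their summed level was 175 to 181 in Vhl knockouts, 247 to 352 in Cre controls and 211 to 408 in floxed controls. Cd24a, not called, gave 139 to 142 of it in Vhl knockouts, 135 to 145 in Cre controls and 123 to 215 in floxed controls. The lower markers Xcr1, Clec9a and Cd209a did not reach 0.962 in any knockout library. Dpp4, also lower, reached it only in Vhl knockout 2, at 1.07. All of these were therefore analysed only through the controls, and their calls are no test. Of 12 monocyte markers, 4 were higher and 1 lower, with sums of 2527 to 3112 in Vhl knockouts, 1919 to 2890 in Cre controls and 2267 to 2473 in floxed controls. Fn1, not called, gave 2153 to 2800 of the sums in Vhl knockouts, 1709 to 2677 in Cre controls and 1819 to 2218 in floxed controls. Named after their values were seen, the higher ones were F13a1 (log2 fold change 5.09), Ace (1.28), Ccr2 (0.62) and Vcan (0.38), and Treml4 was lower (-1.93). Ccr2 (0.40, limma adjusted p = 0.0635) and Vcan (0.33, limma adjusted p = 0.107) were not called against floxed controls alone. Of the controls only floxed control 1, at 1.14, reached 0.962 for F13a1. It was therefore analysed only through the knockouts, and its call is no test. For interstitial macrophages, 10 of 14 markers were measured, 3 were higher and 5 lower, and the sums were 1139 to 1427 in Vhl knockouts, 631 to 671 in Cre controls and 677 to 937 in floxed controls, with Lyve1, Folr2 and Cd163 not among the genes analysed here. Apoe, a lipid carrier, averaged 715 ± 93.1 normalized reads in Vhl knockouts, 78.00 ± 22.2 in Cre controls and 106 ± 21.9 in floxed controls (SD, n = 3 each), without overlap (log2 fold change 2.98, limma adjusted p = 6.71e-07). Mmp12, the macrophage elastase, had 134 to 204 in Vhl knockouts, 16.4 to 24.4 in Cre controls and 20.6 to 105 in floxed controls (2.53, limma adjusted p = 0.00116). Without these genes, left out after their values were seen, the sum of the other 8 was 379.7 to 412 in Vhl knockouts, 538 to 593 in Cre controls and 554 to 701 in floxed controls. The other higher marker, named after its values were seen, was Tmem119 (0.66, limma adjusted p = 0.0108). Of the controls only floxed controls 1 and 3, at 0.978 and 1.11, reached 0.962 for Tmem119. It was therefore analysed only through the knockouts, and its call is no test. The lower markers were C1qa, C1qb, C1qc, Cx3cr1 and Csf1r. Against Cre controls alone C1qa, C1qb, C1qc and Cx3cr1 were not called (limma adjusted p = 0.342, 0.531, 0.171 and 0.915). The part of interstitial macrophages and monocytes in the Fcgr2b difference was not tested. Fcgr3 and Fcgr4 are also neutrophil genes, and 8 of 12 neutrophil markers were measured with 1 higher and 0 lower. Of the natural killer, T cell, and combined mast cell, basophil and eosinophil markers, 1 of 10, 4 of 10 and 1 of 12 were measured, and Ncr1, Cd3e and Cpa3 were not among the genes analysed here. The killer cell marker Klrb1c was at 1.17 to 2.02 in Vhl knockouts, 0 to 0.185 in Cre controls and 2.97 to 4.51 in floxed controls. Klrb1c lies on chromosome 6 and was called between Cre and floxed controls (-2.01, limma adjusted p = 0.00189).

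Genes whose pattern over the 9 libraries was most like that of each called receptor were found by Pearson correlation of log2(value + 1) among 9787 genes whose mean reached 5 normalized reads. All genes share the 9 libraries and 4781 were called between knockouts and controls, so high values are common and are given as a description. For Fcgr2b they were Klk1b11 (r = 0.9946), Rfxap (0.9945) and Adamtsl5 (0.9937). Klk1b11, a kallikrein gene, had 17.7, 14.8 and 15.1 normalized reads in Vhl knockouts, 1.81, 2.04 and 1.36 in Cre controls and 2.34, 2.15 and 2.31 in floxed controls, with floxed above Cre as for Fcgr2b. Rfxap, a subunit of a factor that binds promoters of major histocompatibility class II genes, changed far less, at 13.7 to 14.3 in Vhl knockouts, 8.89 to 9.26 in Cre controls and 9.62 to 10.2 in floxed controls. For Fcgr1 they were Siglece (0.9921), Clec7a (0.9921) and Fuom (0.9917). Siglece, an inhibitory sialic acid receptor, had 10.4, 7.300 and 5.84 in Vhl knockouts, 59.00, 52.5 and 60.8 in Cre controls and 58.1, 56.9 and 51.5 in floxed controls. For Fcgr3 they were Gm5150 (0.9901), Rps12 (0.9860) and Cmtm3 (0.9814), in each of which library 1 was the highest of the knockouts and of the floxed controls. For Fcgr4 they were Gnb1 (0.9885), Lmbrd1 (0.9746) and Rab12 (0.9689).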

How the data were processed

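Bulk poly(A) RNA of purified mouse alveolar macrophages was sequenced in 9 libraries, as single reads of 61 bases, per the labels' protocols. The submitters' processing notes name CASAVA 1.8.2, cutadapt 1.3, RSEM 1.2.3 and build GRCm38. The sources used here do not say whether the kit marks strand. The deposited table gives a signal per gene, normalized reads: each value is a whole number of reads (within 0.01 read, 100% of values) times 1 factor per library. Every gene reaches 0.962 in at least 3 libraries, so rarer genes are not analysed here. The call of a gene that was analysed only through its higher group is no test, also where it is counted in a list. Such scaling hides any change common to all genes. Counting limits for a value of 0 (3 reads) cover counting error only. Columns left unused numbered 0.

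The members and lists were chosen with earlier results of these data known. GENCODE M21 named 11935 of 12003 identifiers. Because the table holds scaled values, limma 3.58.1 (R 4.3.3; trended empirical Bayes) took the place of edgeR on log2(value + 1), which understates changes of low genes, with 1 mean per genotype over all 9 libraries and two-sided, Benjamini-Hochberg adjusted p-values. The procedure was tested on simulated data. Alternatives were other pseudocounts, filters and scalings, edgeR 4.0.16 and DESeq2 1.42.0 on the recovered reads, a replicate block, only the groups compared, and leaving libraries out. Named genes are the 6 members, Vhl, and from each pathway list up to 4 called genes with the smallest adjusted p that did not overlap between knockouts and controls and up to 2 most abundant uncalled genes, plus the 3 genes most like each called member. Genes outside that rule are marked as named after their values were seen or belong to the chromosome 1 region. Some results are not reported here.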

Additional observations from a re-analysis of the deposited data

Results flagged for a closer look

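Among the 6 control libraries, 48 values (members, ratios and named genes) were searched for a library that stood apart by Dixon's criterion, which chance meets in about 1 in 20 groups, and 4 met it. Floxed control 3 had 388 normalized reads of Fcer1g, below the other controls at 459 to 485. Cre control 1 had 136 normalized reads of Pik3cg, against 147 to 153 in the other controls. Floxed control 1 had 42.02 normalized reads of Jchain, the joining chain of polymeric antibodies, and 9.02 of Ighm, the mu heavy chain, each the highest control value.

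The size of the Fcgr2b difference from the knockout depended on the control used, with log2 fold changes of 2.54 against Cre controls and 2.07 against floxed controls. Cre controls lay below floxed controls by a log2 difference of -0.47 (limma adjusted p = 0.0487), with 158 to 188 normalized reads in Cre controls and 234 to 248 in floxed controls. The call between the controls was lost in 12 of 19 alternatives, while the difference stayed between -0.51 and -0.39.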

How the results depend on the processing

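The calls and directions of Fcgr2b, Fcgr1 and Fcgr4 against both controls were kept in all 18 alternatives. Counts of genes called between knockouts and controls stayed within 1.5 times the reported counts, between 3052 and 4974. Scaling to the same sum changed the split against floxed controls to 1635 higher and 2540 lower, from 2099 and 2013, and that against both controls to 1925 higher and 2838 lower. Between Cre and floxed controls the 20 genes called became 74 with DESeq2, 11 with only the groups compared, 147 without library 1 of each genotype and 13 to 31 with 1 library left out. At an unadjusted p under 0.05 there were 961.

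Replicate numbers did not pair the libraries, since correlations of same-numbered pairs ran from -0.0934 to 0.524 and not every library correlated best with its own number. The values correlated were deviations from each genotype's mean, so positive pairs have to be balanced by negative ones. The 3 pairs among the libraries numbered 1 lay between 0.202 and 0.524. Their 12 pairs with other numbers were all negative, between -0.443 and -0.0300, signs that this balance partly fixes. With the replicate block, 4898 genes were called against both controls and 71 between the controls.

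Fcgr3 against both controls ranged between 0.28 and 0.44 with 1 library left out. Fcer1g was called with the same sum (-0.22), quantile normalization (-0.25) and DESeq2 (-0.17), and ranged between -0.21 and -0.13 with 1 library left out. Syk was called in the same settings (-0.20, -0.29 and -0.15) and ranged between -0.17 and -0.13. The log2 ratio of Fcgr2b to the activating sum ranged between 1.96 and 2.14 with 1 library left out, and was 2.11 without library 1 of each genotype (exact permutation p = 0.133, the smallest 2 against 4 libraries allow). With 2 knockout libraries p cannot go below 0.0714. Differences near 0 between Cre and floxed controls changed sign: Fcgr3 with the same sum (-0.02), with quantile normalization (-0.04) and between -0.07 and 0.13 with 1 library left out, Fcer1g between -0.00 and 0.16, and Syk between -0.05 and 0.02. The cause of these changes was not tested. Where 1 library of a group is left, it is assumed to vary like the others. Leaving out library 1 of each genotype was chosen after seeing the data. Each genotype has 3 pools, and the scarcest member had 395 reads.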

Other observations

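Of the 20 genes called between Cre and floxed controls, 11 lie on chromosome 6, which holds 4.77% of the genes tested, and Fcgr2b is the only 1 of them on chromosome 1. Vhl, whose alleles differ between the control genotypes, also lies on chromosome 6 (chr6:113623959-113631633). The calls on chromosome 6 include Eps8, which had a mean of 63.3 normalized reads in Cre controls and 13.04 in floxed controls, and Emp1, with 81.9 in Cre controls and 211 in floxed controls. These genes were named after their values were seen, and the reason for this clustering was not tested.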
